A study of Homo sapiens with 10 samples.

Results

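The 6 protein-coding genes FOXK1, METTL9, MYO1G, ING5, YDJC and SLC33A2 lie nearest to strong MYC binding sites that appear in the peak lists of both wild-type MYC and the mutant 3A. They were chosen from 20037 protein-coding genes by the fold enrichments of the WT and 3A lists, so those folds, and the presence of a peak in both lists, describe the choice and are not tested. Binding was measured by ChIP-Rx, chromatin immunoprecipitation and sequencing with a spiked-in genome of another species, in U2OS, a human osteosarcoma line. The cells lacked their own MYC gene and carried a FLAG-tagged MYC under a doxycycline-inducible control. After 24 h with 1 µg/mL doxycycline, FLAG immunoprecipitates (IPs) were made from cells with MYC-3A (2 libraries), MYC-7A (2) and MYC-WT (2). Uninduced MYC-WT cells gave 2 IPs and 1 input, and induced MYC-WT cells 1 input. NIH3T3 mouse fibroblasts, mixed in at 10%, were common to all groups. Which residues 3A and 7A change, and whether the lines are single clones, is not given in the sources used here.

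The processed data are 1 list of peaks per induced protein: 845 for 3A, 64 for 7A and 4749 for WT. With 1 list each there is no spread between replicates, and no difference between proteins was tested. Peaks of the uninduced IPs and of the inputs were not analysed here, so the sites could not be compared with uninduced cells, and the depth of each library is unknown from these files. Fold enrichment is the authors' value, the IP pileup over the local background at the summit, the highest point of the peak. It is relative to each list's own background, so a 3A fold and a WT fold given side by side do not measure how much less protein was bound. The −log10 q is the authors' significance score for the peak. Coordinates are hg38.

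MYC is a basic helix-loop-helix leucine zipper transcription factor. It pairs with MAX and binds DNA at E-boxes, of which CACGTG is the canonical form, mostly at open promoters and enhancers. When abundant it also occupies open chromatin that lacks the motif. The products of the genes nearest to the sites have unrelated functions. FOXK1 is a forkhead transcription factor that represses autophagy genes and promotes glycolysis, and METTL9 methylates histidines in many proteins. MYO1G is a class I myosin of blood cells. ING5 carries a PHD finger that reads methylated histone H3 and belongs to histone acetyltransferase complexes. YDJC is a homologue of a bacterial carbohydrate deacetylase, and SLC33A2, also named MFSD3, is a membrane transporter of the major facilitator family.

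Promoter windows are printed for the gene starts that a WT peak covered, because they show which of these starts 3A kept. Each holds 250 bases before and 50 after an annotated start, 5′ to 3′ on the gene's strand, from RefSeq (GRCh38.p14). Capitals mark the canonical E-box CACGTG. A variant, CACGCG, and a second, CACATG, were searched for on both strands as well and would also be capitals. FOXK1 is at chr7:4682045-4682344 (plus strand), and ING5 has a first start at chr2:241686770-241687069 and an internal one at chr2:241701789-241702088 (both plus). YDJC is at chr22:21629973-21630272 (minus).
FOXK1: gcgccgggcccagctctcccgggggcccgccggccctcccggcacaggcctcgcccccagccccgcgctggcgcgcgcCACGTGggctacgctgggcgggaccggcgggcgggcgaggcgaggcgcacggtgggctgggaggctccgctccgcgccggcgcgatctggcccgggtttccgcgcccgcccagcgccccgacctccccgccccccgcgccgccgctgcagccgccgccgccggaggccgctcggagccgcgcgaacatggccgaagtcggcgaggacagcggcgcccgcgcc
ING5 first start: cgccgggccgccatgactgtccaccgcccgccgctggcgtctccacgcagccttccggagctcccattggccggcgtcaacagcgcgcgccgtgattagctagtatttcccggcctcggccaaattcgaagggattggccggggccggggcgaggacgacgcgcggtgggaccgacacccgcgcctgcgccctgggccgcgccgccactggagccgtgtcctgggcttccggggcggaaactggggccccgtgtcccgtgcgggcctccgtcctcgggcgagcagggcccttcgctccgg
ING5 internal start: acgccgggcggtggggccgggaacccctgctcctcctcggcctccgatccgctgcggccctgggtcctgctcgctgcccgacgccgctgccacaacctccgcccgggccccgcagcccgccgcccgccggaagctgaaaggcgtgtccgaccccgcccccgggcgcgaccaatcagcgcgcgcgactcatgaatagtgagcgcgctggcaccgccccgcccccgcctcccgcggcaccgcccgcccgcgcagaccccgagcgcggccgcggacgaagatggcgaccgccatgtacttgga
YDJC: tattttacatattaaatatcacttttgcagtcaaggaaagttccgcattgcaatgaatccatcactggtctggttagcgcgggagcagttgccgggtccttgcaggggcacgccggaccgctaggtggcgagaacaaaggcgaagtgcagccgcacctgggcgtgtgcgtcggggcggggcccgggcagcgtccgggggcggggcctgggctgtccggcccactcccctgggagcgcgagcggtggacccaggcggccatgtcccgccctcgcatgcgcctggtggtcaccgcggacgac

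The capitals in the FOXK1 window are its one canonical E-box, on chromosome 7 from 4682123 to 4682128, with its first base 172 bases before the start. Both windows of ING5 and the window of YDJC held none of the 3 motifs. No window held the summit of a peak shared by 3A and WT at any of the 6 sites. The bases at those summits were not read, so whether the kept sites have an E-box is not known here. Of 35116 RefSeq windows of this length 7.26% held the canonical E-box, and 21.8% held one of the variants. Windows of 5 of the 6 genes were matched, 7 in all. Those of MYO1G and METTL9, which no peak touched, also held none of the motifs. The FOXK1 window had 84.3% G and C, and the ING5 windows 74.3% and 77.3%, where the median over all windows was 58.7%. YDJC had 65.7%.

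Every one of the 6 genes had a 3A summit and a WT summit inside it or within 80 kb of its ends, and none had a 7A summit there. Over all protein-coding genes the shares were 14.2% for 3A, 0.818% for 7A and 50.2% for WT. Since 3A and WT peaks chose the genes, nothing is read from those counts. The lists held 6 peaks of 3A, 0 of 7A and 11 of WT at these genes. Each gene had 1 WT peak with a 3A counterpart, where 15.1% of all WT peaks had one and 86.7% of all 3A peaks overlapped a WT peak. The other 5 WT peaks, at FOXK1, ING5 and SLC33A2, had none. Strong WT peaks often had one. Among the 51 to 100 WT peaks closest in fold rank to each of the 6 kept peaks, 59 to 63.8% had a 3A peak. The 7A summit nearest to a site was 2993 kb away, on the chromosome of MYO1G, and at the other sites it was 5594 to 43338 kb away. Only 1.03% of WT peaks had a 7A peak at all.

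**Figure D1:**
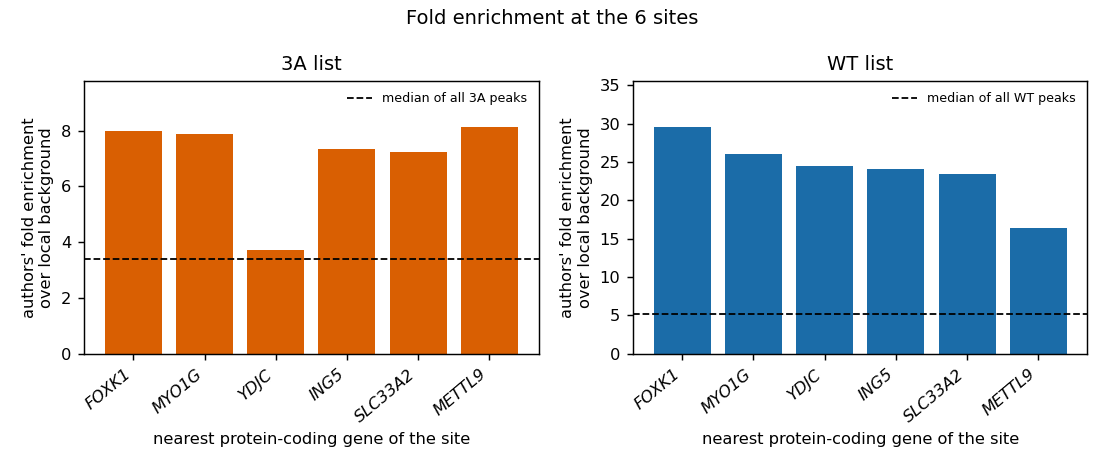
The authors' fold enrichment (vertical axis, linear from 0, a separate scale for each panel) of the 3A peak (left) and the WT peak (right) at each site, named by its nearest protein-coding gene. Dashed lines are list medians, 3.41 for 3A and 5.14 for WT. The 3A bars run from 3.74 at YDJC to 8.15 at METTL9, and the WT bars from 16.4 at METTL9 to 29.6 at FOXK1.

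The site nearest to FOXK1 had the highest −log10 q of both lists. The 3A peak (chromosome 7, 4641521 to 4642576) had a fold of 8.00 and a −log10 q of 136. The WT peak (4641464 to 4642590) had a fold of 29.6 and a −log10 q of 925. By fold the site ranked 2nd in both lists. Its 3A and WT peaks were nearly equal in width, at 1056 bp and 1127 bp, a ratio of 0.937, and their summits lay 22 bp apart.

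No RefSeq gene, coding or not, lay at this site. Its 3A summit was 40188 bp and its WT summit 40210 bp before the start of FOXK1. Next came LOC124901580, a coding gene on the other side, at 42578 bp from the WT summit, then SNORD13P2, a pseudogene inside FOXK1, at 47344 bp, and the lncRNA LOC105375133 at 72369 bp. Summits 40 kb or more from any RefSeq gene made up 0.828% of the 3A list (7 of 845) and 0.884% of the WT list (42 of 4749), a distance chosen after that of this site was known.

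FOXK1's own start had a listed peak in WT only. A WT peak of 550 bp (4681829 to 4682378) covered the whole promoter window, with a fold of 11.8, which ranked 185th of 4749. Its summit was 151 bp before the start and 18 bp from the centre of CACGTG. No 3A peak was listed there. Of the 100 WT peaks closest to it in fold rank, 41 had a 3A peak, so the lack of one was common at this fold.

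The site nearest to MYO1G lay at a non-coding gene. SNHG15, a lncRNA that hosts a small nucleolar RNA in an intron, spans 44983023 to 44986696 on chromosome 7, and both summits fell inside it, 159 bp (3A) and 190 bp (WT) from its higher-coordinate end. The 3A peak (44986012 to 44987078) had a fold of 7.86 and a −log10 q of 88.2, and the WT peak (44985318 to 44987284) a fold of 26.0 and a −log10 q of 526. MYO1G itself was 7522 bp from the 3A summit and 7491 bp from the WT summit.

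The WT peak at SNHG15 reached over SNORA9, the small nucleolar RNA at 44985378 to 44985510, and the 3A peak did not. The 3A peak began 694 bp inside the lower edge of the WT peak and ended 206 bp inside the upper edge. It measured 1067 bp, against 1967 bp in WT, with summits 31 bp apart. The next genes were the lncRNA LOC102723334, 5188 bp from the WT summit, and CCM2, which encodes a vascular adaptor protein, at 13240 bp. The MYO1G promoter window touched no peak in any of the lists.

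The site nearest to METTL9 also lay at a non-coding gene, and METTL9 was far away. The 3A peak (chromosome 16, 21520415 to 21520731) had the highest fold of its list, 8.15, with a −log10 q of 30.4. The WT peak (21520230 to 21520798) had a fold of 16.4, ranked 51st, and a −log10 q of 93.6. The summits were 144 bp (3A) and 135 bp (WT) beyond the higher-coordinate end of SLC7A5P2, a transcribed pseudogene at 21517893 to 21520444. They were 76620 bp and 76629 bp from METTL9, which is the nearest coding gene and has no other peak within 80 kb. Of the 8 RefSeq genes within 80 kb of the WT summit 7 were non-coding, among them the lncRNA LOC124903662 at 10108 bp, MIR3680-1 at 14444 bp and the pseudogene SMG1P3 at 18298 bp.

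SLC7A5P2 is a copy of SLC7A5, the gene of the amino acid transporter LAT1, and the copies were looked at after this site was seen. At SLC7A5 itself 3A had no peak, and a WT peak at its start had a fold of 8.02 (chromosome 16, 87868325 to 87869911). At the pseudogene SLC7A5P1 3A again had none, and WT had a fold of 8.51 (29612929 to 29613931). How reads that fit several copies were placed is not given in the sources used here, so the split of signal among the copies is uncertain.

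The site in ING5 lay at an internal start. The 3A peak (chromosome 2, 241701238 to 241701962) had a fold of 7.34 and a −log10 q of 29.6, and the WT peak (241700839 to 241703033) a fold of 24.0 and a −log10 q of 209. The 3A summit was 510 bp and the WT summit 457 bp before that start, the largest separation among the sites at 53 bp. The WT peak covered all 300 bases of the internal window, and the 3A peak 174 of them. At 725 bp against 2195 bp in WT, the 3A peak was 0.330 of the WT width. No non-coding RefSeq gene lay within 80 kb.

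The first start of ING5 faces that of DTYMK, the thymidylate kinase gene, and had a listed peak in WT only. That peak (241686367 to 241687610) had a fold of 5.84 and its summit 257 bp inside ING5. A further WT peak, with a fold of 6.51 (241636128 to 241637882), had its summit inside THAP4. It reached the lower-coordinate end of ATG4B, an autophagy protease gene. Its summit lay 50663 bp from ING5. Of the 100 WT peaks closest in fold rank, 15 had a 3A peak for the first and 3 for the second.

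The site in YDJC had the weakest 3A peak of the 6. It ranked 291st of 845 by fold, at 3.74 with a −log10 q of 19.3 (chromosome 22, 21629130 to 21629570). The WT peak ranked 7th, at 24.5 with a −log10 q of 474 (21628662 to 21630383). The 3A peak measured 441 bp, against 1722 bp in WT, the smallest ratio of the 6 at 0.256. The summits lay 644 bp (3A) and 673 bp (WT) downstream of the YDJC start, inside this short gene of 1934 bp. The WT peak reached back over the whole promoter window, and the 3A peak touched none of it. The nearest other genes were CCDC116 at 3411 bp and UBE2L3, a ubiquitin-conjugating enzyme gene, at 5315 bp from the WT summit. The closest non-coding ones were LOC107985532, MIR301B and MIR130B at 22832 to 23955 bp.

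The site at SLC33A2 lay just outside the gene, and the summits of both proteins nearly coincided. The 3A summit was 400 bp and the WT summit 399 bp from the gene, on chromosome 8, and both peaks ran into it. The 3A peak (144508337 to 144509365) had a fold of 7.23 and a −log10 q of 72.1, and the WT peak (144508102 to 144510016) a fold of 23.5 and a −log10 q of 396. The 3A peak measured 1029 bp, against 1915 bp in WT. GPT, which encodes alanine aminotransferase, ended 1499 bp from the WT summit, and the lncRNA LOC101928953 3197 bp from it.

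SLC33A2 has many neighbours, with 14 coding genes, itself included, within 80 kb of the WT summit. In its window 2 further WT peaks lay closer to other genes. The first (144522367 to 144523435, fold 4.34) had its summit inside LRRC14 and LRRC24, and RECQL4, a DNA helicase gene, C8orf82 and ARHGAP39 were also nearer to it. The other (144528758 to 144529829, fold 6.16) lay between the facing ends of C8orf82 and ARHGAP39, 30 bp and 38 bp away. Neither had a 3A peak, and of the 100 WT peaks closest in fold rank 3 and 11 had one.

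**Figure D2:**
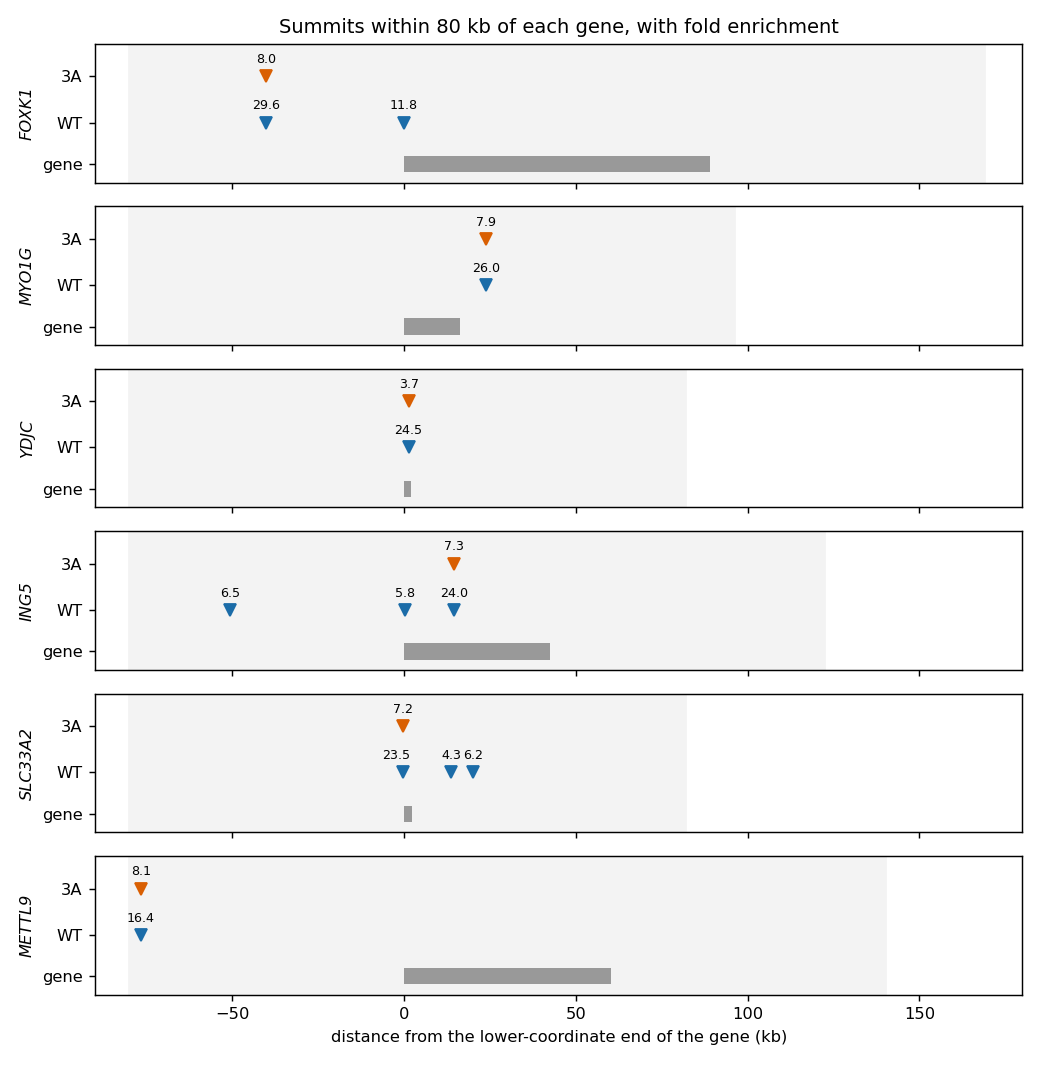
Summits of 3A (orange, upper row) and WT (blue, lower row) within 80 kb of each gene, by distance from the gene's lower-coordinate end in kb, with the authors' fold beside each. Grey bars are the genes and the shaded area is the window. No 7A summit falls in any window. Each gene has 1 orange mark, above the WT mark with the highest fold.

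At FOXK1, ING5 and SLC33A2, the 3 genes with more than 1 WT peak in the window, the peak kept by 3A was the one with the highest WT fold. Among all 1420 genes with at least 2 WT peaks of which 1 was kept, it was the strongest in 63.1%. Since the sites were chosen for their high folds, nothing is read from the 3 genes here.

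The positions and widths of the peaks were not among the values that chose the sites, but the fold was, so pairs of like WT fold are given beside all pairs. Summits of 3A and WT lay 1 to 53 bp apart at the 6 sites, with a median of 25.5 bp, and the 3A summit was at the higher coordinate in 4 and at the lower in 2. Over all 733 3A peaks that overlapped a WT peak the median separation was 49.0 bp (quartiles 19.0 to 111 bp). Over the 27 other pairs with a WT fold above 16.4, that of METTL9, it was 23 bp (9.5 to 61 bp), close to the 6 sites. That set was drawn after the values were seen. All 6 sites had summits within 100 bp, as did 72.7% of all pairs. The 3A peak lay wholly inside the WT peak at all 6 sites and in 78.9% of all pairs. No test was made of these differences between 6 chosen sites and the rest.

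**Figure D3:**
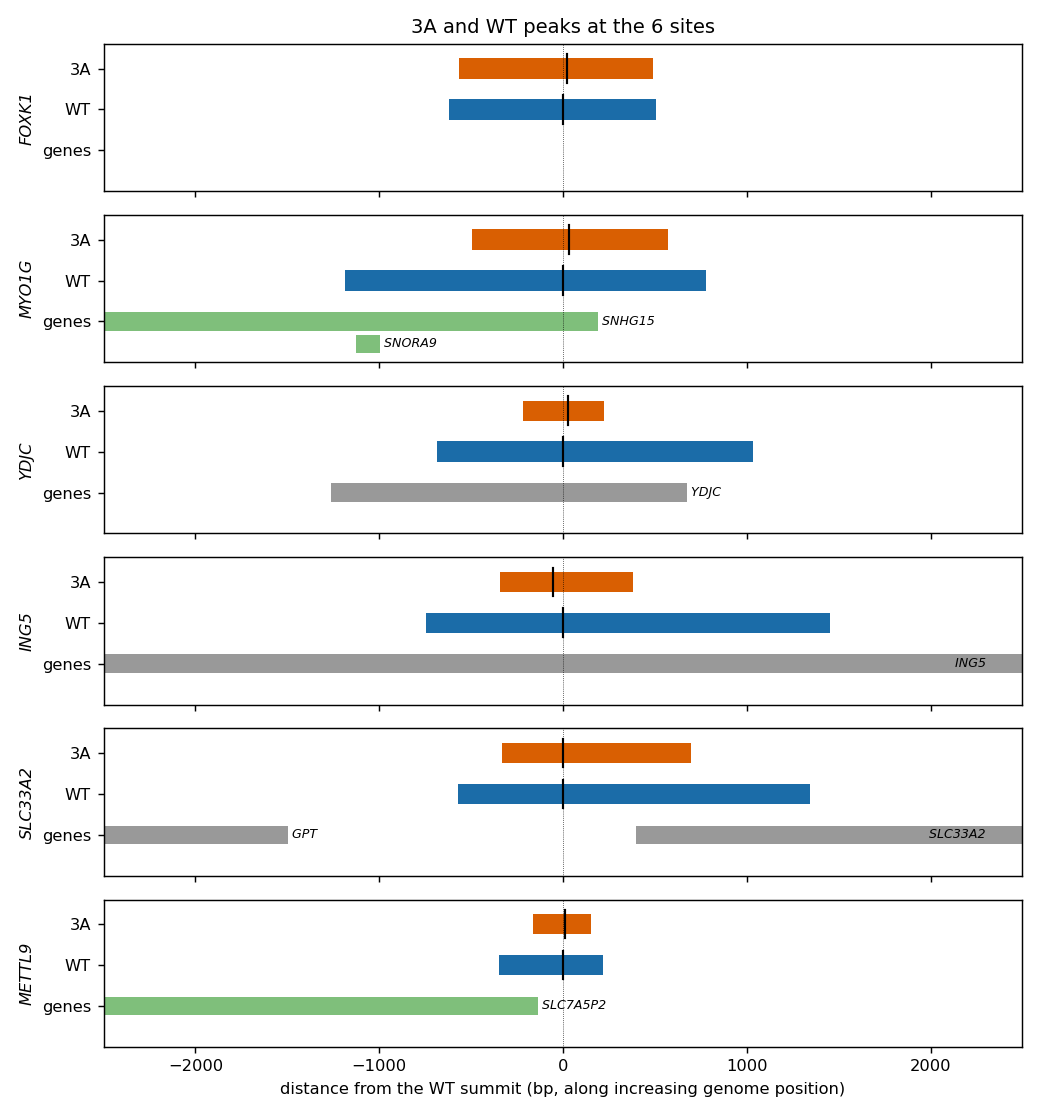
Extent of the 3A peak (orange, upper bar) and the WT peak (blue, lower bar) at each site, by distance in bp from the WT summit along the genome. Black ticks are summits, grey bars coding genes and green bars non-coding genes. Every 3A bar lies within its WT bar, with the summit ticks at most 53 bp apart.

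The widths were less even than the summits. The 3A peak was 0.256 to 0.937 times as wide as the WT peak, with a median of 0.540, where the median over all overlapping pairs was 0.642 (quartiles 0.481 to 0.801) and that over the 27 other strong pairs 0.530 (0.358 to 0.631). Against all pairs FOXK1 was above the upper quartile, ING5 and YDJC were below the lower one, and SLC33A2, MYO1G and METTL9 were close together at 0.537 to 0.557. The WT peak extended further beyond the 3A peak at the upper edge in 3 sites and at the lower edge in the other 3. At ING5 it extended 399 bp at the lower edge and 1071 bp at the upper, at YDJC 468 bp and 813 bp, and at SLC33A2 235 bp and 651 bp. At MYO1G it extended 694 bp and 206 bp, at METTL9 185 bp and 67 bp, and at FOXK1 57 bp and 14 bp.

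These sites kept a 3A peak, and the 3A fold was below the WT fold at all 6. The ratio of 3A to WT fold was 0.270 at FOXK1, 0.302 at MYO1G, 0.305 at ING5, 0.308 at SLC33A2 and 0.152 at YDJC. It was 0.496 at METTL9. Over all overlapping pairs the median ratio was 0.534 (quartiles 0.399 to 0.699), so that only METTL9 lay within the quartiles. Over the 27 other pairs with a WT fold above that of METTL9 the median was 0.225 (0.190 to 0.279), which 5 of the 6 sites exceeded. Both folds chose the sites, so nothing is read from the ratio, which also carries each list's own scale.

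**Figure D4:**
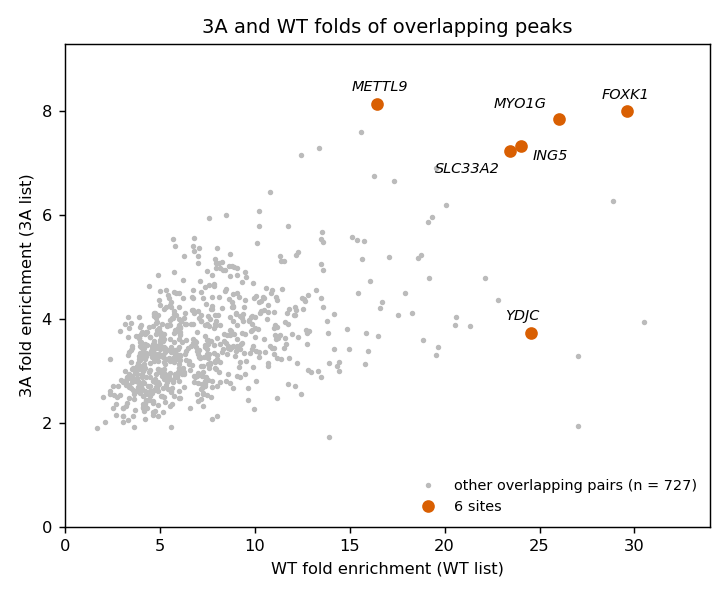
The authors' 3A fold (vertical axis) against the WT fold (horizontal axis) of overlapping peaks, both linear. Orange points are the 6 sites and grey points the 727 other pairs. METTL9 (3A fold 8.15, WT fold 16.4) stands left of the other leading sites, and YDJC (3A fold 3.74, WT fold 24.5) stands below them.

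The fold can be split into the IP pileup at the summit and the local background it is set against, both recovered from the fold and the p-value of each peak. Neither is comparable between lists without library totals and spike-in scaling. A 3A and a WT pileup given side by side therefore do not measure how much less protein was bound. At FOXK1 the 3A pileup was 265 and the WT pileup 873, the highest of the WT list, over backgrounds of 32.2 and 28.5. At MYO1G the pileups were 174 in 3A and 520 in WT, and at SLC33A2 152 and 408. At YDJC the pileup was 85 in 3A and 481 in WT. The list medians were 68 for 3A and 72 for WT, and these 4 sites were above them in both lists, by a small margin for YDJC in 3A. Since the pileup is recovered in part from the fold, which chose the sites, nothing is read from this.

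At METTL9 in both lists, and at ING5 in 3A, the pileup was not among the highest and the local background was low. The 3A pileup at METTL9 was 58, below the list median, over a background of 6.24, where the median background of the list was 19.7. That background was one of the 2 lowest of the 845 3A peaks. In WT the pileup was 110, above the list median, over 5.75, the lowest background in the WT list, which 139 peaks shared. At ING5 the 3A pileup was 62 over 7.58, again below the list median. The WT pileup there was 209, which ranked 123rd of 4749, over 7.73, where the WT median background was 13.0. By −log10 q in place of fold, METTL9 ranked 45th in 3A and 284th in WT, and ING5 50th and 38th. FOXK1 ranked 1st and MYO1G 3rd in both lists by that measure.

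**Figure D5:**
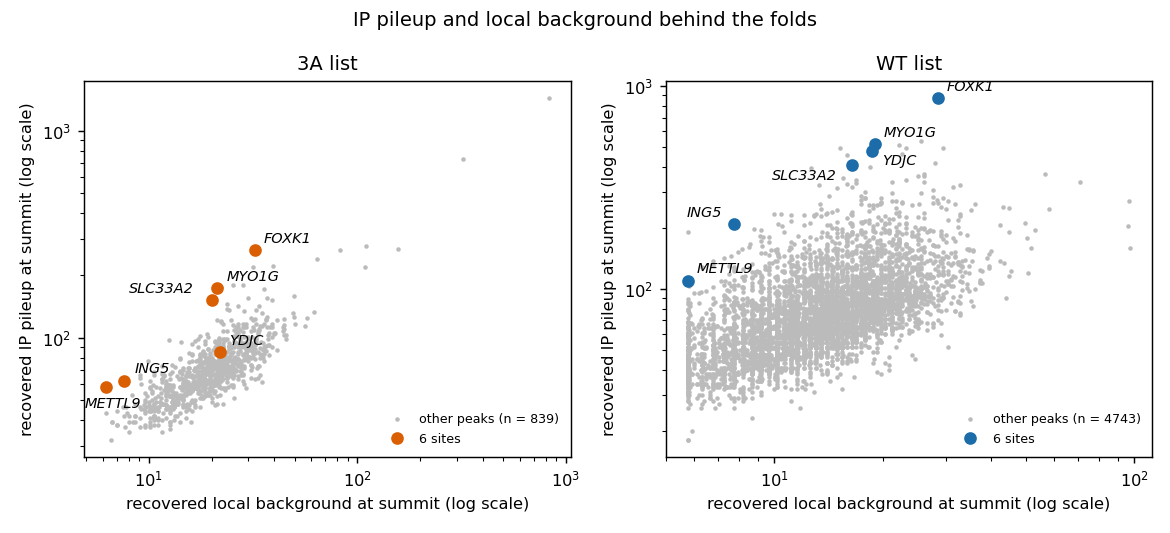
IP pileup (vertical axis) against local background (horizontal axis) at the summit, both recovered from the deposited values and on log scales, for 3A peaks (left) and WT peaks (right). Coloured points are the 6 sites and grey points all other peaks. FOXK1, MYO1G and SLC33A2 stand at the upper edge of both clouds, METTL9 at the left edge, ING5 toward it, and the 3A point of YDJC within its cloud.

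The strong peaks next to the choice were as follows. The members held WT ranks 2, 6, 7, 8, 9 and 51. Of the others among the 10 leading WT peaks, PPRC1 ranked 1st with folds of 3.95 in 3A and 30.5 in WT. A peak 7 bp from NME1-NME2 ranked 3rd, with 6.27 in 3A and 28.9 in WT, and a peak inside that read-through gene ranked 10th, just after SLC33A2, with 4.37 and 22.8. NCL ranked 5th, with 3.28 in the stronger of 2 overlapping 3A peaks and 27.0 in WT. The peak near TCF3 ranked 4th and had no 3A peak, against a fold of 28.4 in WT. In the 3A list the members held ranks 1, 2, 3, 5, 7 and 291, and RPL5, RPL27 and RPL36 ranked 4th, 6th and 8th with 3A folds of 7.60, 7.30 and 7.16.

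Within 1 kb, genes related to the 6 by family or complex had WT folds of at most 10.9. The 6 sites were chosen by fold and lay up to 76629 bp from their genes, so their folds are not set against these. Of the 36 related genes, 1 had a 3A summit inside it or within 1 kb, 0 had a 7A summit and 13 had a WT summit. Of all protein-coding genes, 4.21%, 0.185% and 21.2% had one. Within 80 kb, the window used for the 6 genes, 3 of the 36 had a 3A summit, 0 a 7A summit and 24 a WT summit. The shares of all protein-coding genes in that window were 14.2%, 0.818% and 50.2%. The gene with a 3A peak within 1 kb was FOXK2, the close relative of FOXK1. Its folds were 2.16 in 3A (rank 824 of 845) and 4.65 in WT. Of the 11 genes of FOXK2 and the FOXK partners, 4 had a WT summit within 1 kb. OGT, the O-GlcNAc transferase gene (6.41), and ASXL1, a Polycomb-linked deubiquitinase cofactor gene (5.07), led them.

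The shares of all protein-coding genes with a summit were 21.2% (WT) and 4.21% (3A) within 1 kb, and 50.2% and 14.2% within 80 kb. The acetyltransferase subunit genes linked to ING5 had a WT summit within 1 kb at 6 of 10 and within 80 kb at 8. They had a 3A summit in neither window. JADE2, a scaffold of the HBO1 complex, led with a WT fold of 10.9, and JADE1 had 4.38. The ING family had a WT summit within 1 kb at 1 of 4, ING2 (4.52). Within 80 kb it had a WT summit at 3 and a 3A summit at 1. Of 3 histidine methyltransferase genes 1 had a WT summit within 1 kb, CARNMT1 (7.04). SLC33A1, an acetyl-CoA transporter gene, had none within 1 kb. No gene of the ING, histidine methyltransferase and SLC33 groups had a 3A or 7A summit within 1 kb.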

How the data were processed

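Per the submitters' processing notes, the software comprised MACS2, Bowtie2, Picard, cutadapt and SAMtools (no version or order is listed), and hg19, hg38 and mm10 are named as builds. The authors deposited 1 narrowPeak list for each induced protein, with peak positions in base pairs. The deposited fold enrichment of a peak is a ratio by the authors, read here as its IP pileup at the summit over the local background, each with 1 added. The authors also deposited a −log10 p-value, a −log10 q-value and a score for every peak. The score was not used. How replicates, control and mouse reads entered a list is not given in the sources used here.

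The build was taken as hg38 because 60.2% of WT summits lay within 1 kb of a coding gene end of GRCh38.p14, against 5.22 to 5.96% after a shift of 100 kb either way. A summit is the start plus the offset, counted from 1. Peaks overlapping by at least 1 bp were shared, and each 3A peak was paired with its nearest overlapping WT summit. Pileup and background were recovered from the fold and the p-value as a Poisson tail, within 0.02 of the step between whole pileups for 845 of 845 3A, 63 of 64 7A and 4749 of 4749 WT peaks. The recovery and overlap code was tested on simulated data. Shares have Wilson 95% intervals, covering counting error only. Strand and gene starts came from the RefSeq promoter table.

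The members and lists were chosen with earlier results of these data known. Named genes are the members, genes at or nearest to their sites, and coding genes closer to a listed peak than the member. Also named are family genes with a 3A peak within 1 kb (otherwise the 2 with the highest WT fold) and the neighbours in rank. The values of 1 list of related genes are not reported here. No test was run, since each protein has 1 list. Alternatives covered overlap, −log10 q, window, merging, ranking, midpoints and motifs. Scripts ran under Python 3.11.15 with pandas 2.3.3, numpy 2.4.6, matplotlib 3.10.9 and scipy 1.17.1.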

Additional observations from a re-analysis of the deposited data

How the results depend on the processing

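All 6 sites kept a 3A peak when summits had to lie within 100 bp and at a −log10 q of at least 5 or 10, and 4 did when at least 50% of both peaks had to overlap, ING5 and YDJC being lost. The share of all WT peaks with a 3A peak, 15.1%, was 10.9% with the 50% overlap, 11.2% with summits within 100 bp and 11.7% at a −log10 q of at least 10. Windows of 10, 20 and 40 kb left 4 of the 6 3A peaks, the FOXK1 and METTL9 sites falling outside. The window of 10 kb left 6 of the 11 WT peaks. In those 3 windows the share of coding genes with a summit was 5.71, 7.21 and 9.78% for 3A, 0.294, 0.359 and 0.559% for 7A, and 26.7, 31.7 and 39.8% for WT. Of the 10 leading peaks by fold, 5 in 3A and 5 in WT were member sites. By −log10 q 3 and 3 were, and by recovered pileup 1 and 3. The median separation of 25.5 bp between summits became 190.25 bp between peak midpoints. The canonical E-box stood in 7.26% of promoter windows and its variants in 21.8%. The kept peak was the strongest of its gene in 75.1, 71.0 and 67.6% with windows of 10, 20 and 40 kb, settings added after seeing the data. No paired analysis was possible because each protein has 1 peak list, with no column per replicate, and no replicate could be left out.

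The 3A pileups behind METTL9 and ING5 were 58 and 62, over backgrounds of 6.24 and 7.58. Library depth is unknown from these files, so no interval is given for a single fold.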
